A study of Mus musculus with 5 samples.

Results

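Of the 24319 genes with a usable name in the deposited expression table, 10 genes of the Wnt and R-spondin pathways were examined: *Rspo1*, *Wnt4*, *Wnt5a*, *Wnt5b*, *Wnt7b*, *Lgr4*, *Lgr5*, *Lrp6*, *Axin2* and *Dkk1*. They were chosen by name as ligands, receptors, an antagonist and a target, and all 10 had a row. The samples were 5 bulk RNA-seq libraries of mouse mammary luminal cells, the epithelial cells that line ducts and alveoli, sorted as live CD24-high, CD29-low cells. By the genotype labels, replicates 1, 2 and 3 were wild type and replicates 4 and 5 were *Brca1* knockout, all of mixed strain, whereas the study describes its luminal cells as BRCA1-deficient. In the study's mice *Brca1* is deleted by Cre under the *MMTV* promoter, which acts in mammary epithelium, and the gate given for the bulk sort names no reporter of Cre, and the share of cells with the deletion is not given. The methods speak of young adult females, virgin or at mid-pregnancy, and neither they nor the labels give the age or stage for each library. The labels' extraction text describes tumors, while the methods describe sorted cells. Nothing says that the replicates came from separate animals, so each p-value measures the spread between these libraries only.

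Wnt proteins are secreted lipid-modified ligands that bind Frizzled receptors together with the co-receptors LRP5 and LRP6, which stabilizes beta-catenin and lets TCF and LEF factors switch on target genes. R-spondins bind LGR4, LGR5 or LGR6 and withdraw the ubiquitin ligases RNF43 and ZNRF3 from the cell surface, so that more Frizzled and LRP6 stay there. In the mammary gland, Wnt4 is a paracrine signal of hormone-sensing luminal cells downstream of progesterone, Rspo1 is a luminal factor that acts on stem cells of the basal layer, and Axin2 is a common readout of beta-catenin activity. Dkk1 blocks LRP5 and LRP6 and, like Axin2, is known as a beta-catenin target that feeds back on the pathway.

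The promoters of *Rspo1*, *Axin2* and *Dkk1* are shown because *Rspo1* had the highest mean level and the largest SD of the 10 genes in log2(FPKM + 1), and because the others are known targets of the pathway. Each is the 250 bases before the RefSeq start on GRCm38.p6, 5′ to 3′ on the gene's strand, and capitals mark the word CTTTGNN with each N read as A or T only, a short form of the TCF and LEF binding word, searched on both strands. *Rspo1* is at chr4:124986180-124986429 on the plus strand, *Axin2* at chr11:108920099-108920348 on the plus strand, and *Dkk1* at chr19:30549497-30549746 on the minus strand, where GENCODE M21 places the start of *Dkk1* farther upstream, inside the stretch shown.
Rspo1: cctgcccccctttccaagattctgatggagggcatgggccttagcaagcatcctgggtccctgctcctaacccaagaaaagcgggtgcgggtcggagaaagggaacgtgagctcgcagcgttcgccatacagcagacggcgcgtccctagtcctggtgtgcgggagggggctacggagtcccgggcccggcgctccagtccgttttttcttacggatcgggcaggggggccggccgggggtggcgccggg
Axin2: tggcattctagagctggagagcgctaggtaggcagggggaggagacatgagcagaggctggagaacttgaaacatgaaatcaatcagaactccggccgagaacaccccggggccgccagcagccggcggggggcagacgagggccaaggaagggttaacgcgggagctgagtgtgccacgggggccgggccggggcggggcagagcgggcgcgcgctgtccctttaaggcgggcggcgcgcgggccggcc
Dkk1: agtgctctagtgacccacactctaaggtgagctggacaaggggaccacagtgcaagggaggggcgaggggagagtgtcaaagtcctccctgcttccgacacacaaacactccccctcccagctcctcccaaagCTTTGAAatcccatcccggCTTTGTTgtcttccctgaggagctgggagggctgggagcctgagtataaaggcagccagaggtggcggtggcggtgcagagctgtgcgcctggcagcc

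The *Dkk1* window held 2 words, starting 117 and 98 bases before the RefSeq start, and the *Rspo1* and *Axin2* windows held 0. Both *Dkk1* words lie downstream of the start that GENCODE M21 gives, and so inside the gene as annotated there. RefSeq promoters were at hand for 6 of the 10 genes (8 windows), and the only other match was 1 word in the most downstream of the 3 *Wnt5b* windows. Of 32851 mouse promoter windows of this length, 14.8% held at least 1 such word. A match describes letters only and says nothing about binding.

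Expression was given as FPKM (fragments per kilobase of transcript, scaled to the mapped fragments of each library), and the table holds no counts or read totals. The spacing of low values gave 2 estimates of depth for each library, which lay about 2 times apart and could not be told apart. Rounded, the lower ones ran from 6200000 to 30400000 fragments and the higher ones from 12600000 to 61800000, so fragment numbers below are ranges. *Brca1*, the targeted gene, read 1.30, 1.32 and 0.234 FPKM in replicates 1 to 3 (wild type). Replicates 4 and 5 (knockout) read 1.20 and 1.34 FPKM, so *Brca1* did not separate the labels. The values are for the whole gene, and the sources used here do not say which part of it is deleted. They therefore cannot tell whether the labels are right. Replicate 3 stood apart. Across genes, Pearson's r of log2(FPKM + 1) was 0.921 to 0.931 for replicate 3 with each other library and 0.954 to 0.974 among the others. All 5 libraries expressed luminal markers, with *Krt8* between 2240 and 3653 FPKM and *Epcam* between 570 and 1062 FPKM. Results are therefore given with and without replicate 3.

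*Rspo1* (ENSMUSG00000028871, chromosome 4, 124986430 to 125009099, plus strand of GRCm38) was the most abundant of the 10 genes. It was measured at 148, 137 and 8.29 FPKM in wild type (replicates 1 to 3), compared with 117 and 136 FPKM in knockout (replicates 4 and 5). The values of 4 libraries lay close together, and replicate 3 was 16.2-fold below their mean FPKM. The level in log2(FPKM + 1) was 6.30 ± 1.73 (SD, n = 5), and 7.08 ± 0.14 (SD, n = 4) without replicate 3. *Rspo1* made up at least 99.95% of the summed FPKM of the 4 R-spondin genes in each library. *Rspo2*, *Rspo3* and *Rspo4* stayed below 0.1 FPKM throughout. In bulk RNA, fewer expressing cells and less RNA per cell cannot be told apart.

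**Figure D1:**
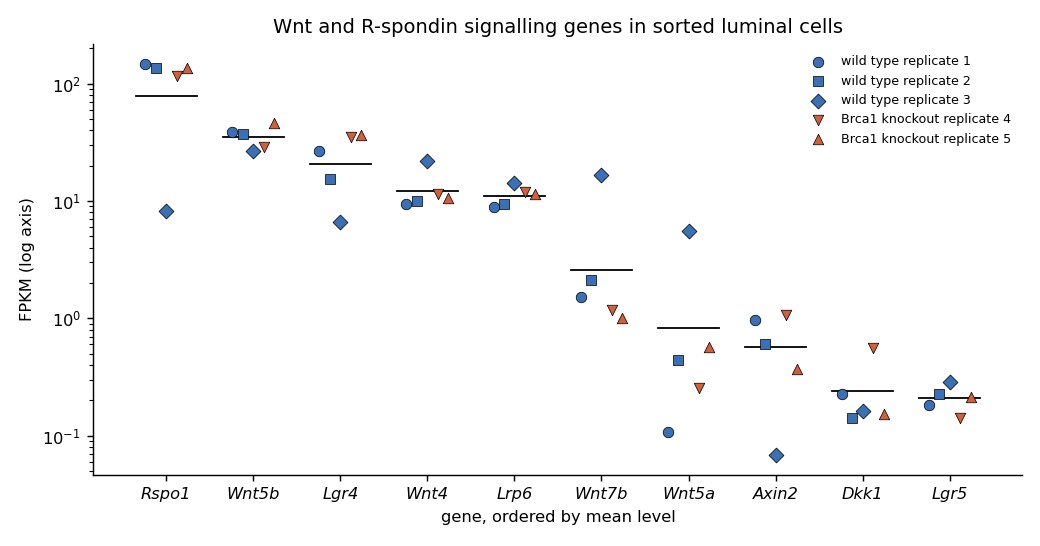
FPKM on a log axis of the 10 genes in each of the 5 libraries (blue, labelled wild type, orange, labelled *Brca1* knockout, diamonds, replicate 3), with a line at the mean of log2(FPKM + 1) turned back to FPKM. Replicate 3 is far below the other libraries for *Rspo1* (8.29 FPKM) and far above them for *Wnt7b* (16.6 FPKM) and *Wnt5a* (5.52 FPKM).

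Among the 19 Wnt genes, *Wnt5b* (chromosome 6, 119432531 to 119544347, minus strand) was the highest in every library. It encodes a ligand usually placed in beta-catenin-independent signalling. *Wnt5b* read 38.7, 37.0 and 26.7 FPKM in replicates 1 to 3 (wild type), compared with 29.0 and 46.6 FPKM in replicates 4 and 5 (knockout). It varied little, with a level of 5.17 ± 0.32 in log2(FPKM + 1) (SD, n = 5). *Wnt4* (chromosome 4, 137277489 to 137299726, plus strand) read 9.50, 9.96 and 22.0 FPKM in replicates 1 to 3 (wild type), compared with 11.4 and 10.6 FPKM in replicates 4 and 5 (knockout). Replicate 3 was 2.12-fold above the mean FPKM of the other 4, which lay within 0.24 of each other in log2(FPKM + 1).

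*Wnt7b* (chromosome 15, 85535437 to 85582473, minus strand), a ligand best known from beta-catenin signalling, was measured at 1.51, 2.12 and 16.6 FPKM in wild type (replicates 1 to 3), compared with 1.17 and 0.998 FPKM in knockout (replicates 4 and 5). Replicate 3 was 11.5-fold above the mean of the others. Every wild type value lay above both knockout values, as was so for 5.77% of all genes tested. A gene on the opposite strand, *AU022754*, overlaps *Wnt7b* exons and did not exceed 0.499 FPKM. Opposite-strand genes also overlap exons of *Wnt5a* (*Gm2670*) and *Axin2* (*Gm11670*), and neither of these has a row. No strand setting is stated for the counting, and the part of such overlaps in the values was not tested. *Wnt5a* (chromosome 14, 28504750 to 28527448, plus strand), which encodes the closest relative of Wnt5b, read 0.108, 0.444 and 5.52 FPKM in replicates 1 to 3 (wild type). Replicates 4 and 5 (knockout) read 0.254 and 0.567 FPKM. Replicate 3 was 16.1-fold above the mean of the others, and in replicate 1 the value rested on an estimated 4.73 to 9.60 fragments.

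These 4 ligands were the Wnt genes whose mean reached 1 FPKM. Of the 19 Wnt genes, 14 stayed under 1 FPKM in each library and 1, *Wnt3a*, was listed at 0 in all of them. The summed Wnt FPKM was 50.5, 51.4 and 74.3 in replicates 1 to 3 (wild type), compared with 43.0 and 59.5 in replicates 4 and 5 (knockout). *Wnt5b* gave 76.6%, 71.8% and 35.9% of this sum in the former and 67.6% and 78.2% in the latter. *Wnt4* gave 18.8%, 19.4% and 29.6% against 26.6% and 17.9%. *Wnt7b* gave 22.4% in replicate 3 and between 1.68% and 4.11% elsewhere. Outside these 4 genes, the highest Wnt value was 2.16 FPKM, for *Wnt11* in replicate 3.

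**Figure D2:**
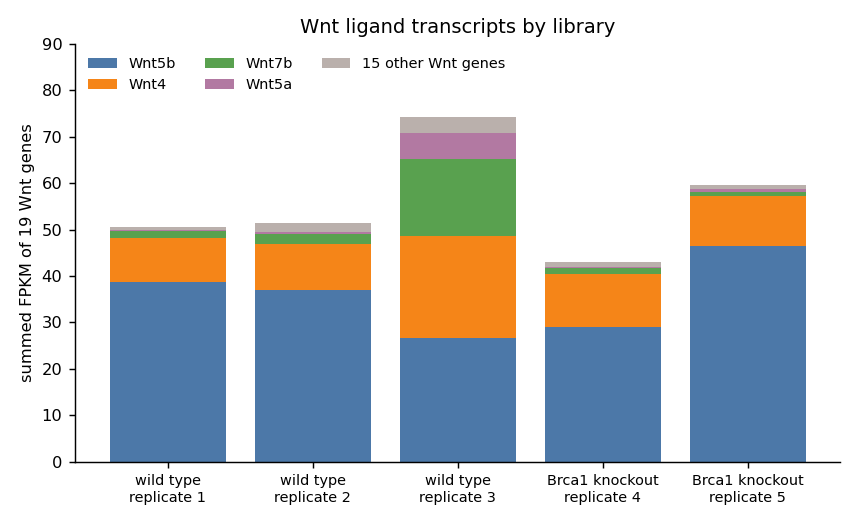
Summed FPKM of the 19 Wnt genes in each library, stacked by gene, with the 15 genes below the 4 most abundant pooled. *Wnt5b* is the largest part of each bar, and the *Wnt7b* and *Wnt5a* parts are visible mainly in replicate 3, whose bar reaches 74.3 FPKM.

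*Lgr4* (chromosome 2, 109917647 to 110014257, plus strand), which encodes an R-spondin receptor, read 26.7, 15.3 and 6.57 FPKM in replicates 1 to 3 (wild type), compared with 35.4 and 36.8 FPKM in replicates 4 and 5 (knockout). Both knockout values lay above every wild type value, as was so for 17.5% of all genes tested. Replicate 3 was 4.35-fold below the mean of the others. *Lgr5* (chromosome 10, 115450311 to 115587780, minus strand), a receptor gene known from stem cells, was between 0.142 and 0.287 FPKM, an estimated 4.31 to 84.9 fragments per library. The ratio of *Rspo1* to *Lgr4* in FPKM was 5.55, 8.95 and 1.26 in the wild type libraries and 3.31 and 3.69 in the knockout libraries. The ratio was lowest in replicate 3.

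*Lrp6* (chromosome 6, 134446476 to 134566965, minus strand), the Wnt co-receptor gene, was measured at 8.94, 9.40 and 14.2 FPKM in wild type (replicates 1 to 3), compared with 11.8 and 11.5 FPKM in knockout (replicates 4 and 5). It had a small spread, 3.59 ± 0.25 in log2(FPKM + 1) (SD, n = 5), and was highest in replicate 3. Replicates 1 and 2 lay below both knockout libraries and replicate 3 above them, so the labels overlapped.

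The target and the antagonist were both low. *Axin2* (chromosome 11, 108920349 to 108950783, plus strand), whose product scaffolds the complex that degrades beta-catenin, read 0.961, 0.606 and 0.0682 FPKM in replicates 1 to 3 (wild type). Replicates 4 and 5 (knockout) read 1.06 and 0.369 FPKM, so the labels overlapped. The value of replicate 3 was 11.0-fold below the mean of the others and rested on an estimated 8.82 to 18.0 fragments. *Dkk1* (chromosome 19, 30545863 to 30549665, minus strand) read 0.228, 0.141 and 0.162 FPKM in replicates 1 to 3 (wild type), compared with 0.559 and 0.153 FPKM in replicates 4 and 5 (knockout). Replicate 4 was highest, on an estimated 8.60 to 17.5 fragments, and no other library passed 0.228 FPKM. At such fragment numbers the differences in *Dkk1* and *Lgr5* are imprecise from counting alone.

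Because FPKM is per transcript length, the 10 genes can be ordered by their mean level in log2(FPKM + 1). The order was *Rspo1*, *Wnt5b*, *Lgr4*, *Wnt4*, *Lrp6*, *Wnt7b*, *Wnt5a*, *Axin2*, *Dkk1* and *Lgr5*. Neighbours differed by more than 1 SD of their difference within libraries at 3 of 9 steps. These were *Lrp6* over *Wnt7b* (1.74 ± 1.16, in 4 of 5 libraries), *Wnt7b* over *Wnt5a* (0.97 ± 0.42, in 5 of 5) and *Axin2* over *Dkk1* (0.34 ± 0.30, in 4 of 5). *Rspo1* was above *Wnt5b* in 4 of 5 libraries but by 1.14 ± 1.53, less than the spread, which included replicate 3. Without replicate 3, *Rspo1* was at 7.08 ± 0.14 and *Wnt5b* at 5.26 ± 0.27 (SD, n = 4). *Axin2* (0.79) then came above *Wnt5a* (0.41), and the order of the other genes was unchanged. *Wnt4* and *Lrp6* differed by 0.12 ± 0.28, and *Dkk1* and *Lgr5* by 0.03 ± 0.24.

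The comparison the labels imply is *Brca1* knockout (n = 2) against wild type (n = 3). No gene passed an adjusted p of 0.05 in limma (0% of 11481 genes tested, and 3.24% had an unadjusted p under 0.05). Of the 10 genes, 7 reached the mean of 1 FPKM needed for the test, and 0 of these 7 passed at the adjusted or the unadjusted threshold. *Wnt5a* reached it only through replicate 3. The median difference was 0.12 (log2) over the 7 genes and 0.11 over all genes tested.

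*Lgr4* had a difference of 1.30 in log2(FPKM + 1), knockout minus wild type (standard error 0.55, 95% interval -0.07 to 2.68, limma adjusted p = 0.92). Without replicate 3 the difference was 0.80 (95% interval 0.05 to 1.56, limma unadjusted p = 0.042, limma adjusted p = 0.71), smaller by more than 1.5 times. In that fit 789 of 11310 genes had an unadjusted p under 0.05. The labels did not overlap with the knockout higher for 1 of the 7 genes, *Lgr4*, and for 17.5% of all genes tested. *Wnt7b* had a difference of -1.31 (standard error 0.88, 95% interval -3.53 to 0.90, limma adjusted p = 0.92), and of -0.43 without replicate 3 (95% interval -1.05 to 0.20, limma adjusted p = 0.74). The labels did not overlap with the knockout lower for 1 of the 7, *Wnt7b*, and for 5.77% of all genes tested. An exact permutation test of 3 libraries against 2 gave p = 0.2 for each of these 2 genes, two-sided, the smallest p it allows.

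*Rspo1* had a difference of 1.14 with an interval wider than the difference (-2.08 to 4.36, limma adjusted p = 0.93), and without replicate 3 it was -0.17 (95% interval -0.57 to 0.22). *Wnt4* turned from -0.20 to 0.17 and *Wnt5b* from 0.12 to -0.04 when replicate 3 was left out, and *Wnt5b* was also negative (-0.21) without replicate 5. *Lrp6* was 0.13 with all libraries and 0.32 without replicate 3 (95% interval -0.02 to 0.66, limma adjusted p = 0.72), but 0.02 without replicate 1 and 0.05 without replicate 2. *Wnt5a* was -0.64 with an interval of -2.69 to 1.41 and -1.13 without replicate 1. Without replicate 3 it fell under the filter and its difference in means was 0.15. *Axin2*, under the filter throughout, went from 0.17 to -0.08. For the 3 genes under the filter the exact permutation test, two-sided, gave p = 0.4 for *Lgr5*, p = 0.8 for *Axin2* and p = 0.6 for *Dkk1*. A p that misses the threshold does not show that the labels were alike, and the intervals give the sizes these libraries allow.

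**Figure D3:**
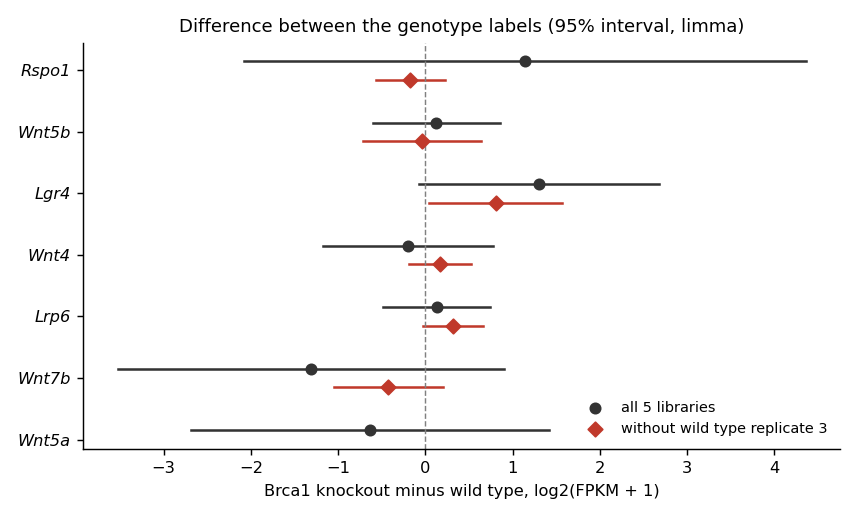
Difference in log2(FPKM + 1) between libraries labelled *Brca1* knockout and wild type for the 7 genes tested, with 95% intervals from limma over all 5 libraries (black) and without wild type replicate 3 (red, 6 genes). The interval of *Rspo1* runs from -2.08 to 4.36 with all libraries and from -0.57 to 0.22 without replicate 3.

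The pathway as a whole was taken by role from a list of 98 genes, members included, 54 of which reached a mean of 1 FPKM, and 0 of the 54 passed the adjusted threshold in either direction. At the unadjusted threshold 1 of the 54 passed, a smaller share than the 3.24% of all genes tested. This was *Ror1*, a Wnt5a receptor gene, with a difference of 0.87 (standard error 0.32, limma adjusted p = 0.92). The median difference of the 54 genes was 0.13. For secretion, *Wls*, which carries Wnt proteins to the cell surface, was measured at 27.9, 17.8 and 37.4 FPKM in wild type (replicates 1 to 3), compared with 73.2 and 18.9 FPKM in knockout (replicates 4 and 5). *Porcn*, which encodes the acyltransferase that adds the lipid, lay between 2.24 and 3.17 FPKM.

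Of 16 Frizzled and co-receptor genes, 11 reached the filter, and the most abundant were *Lrp5* (18.7 to 37.5 FPKM), *Ptk7* (15.6 to 21.3 FPKM) and *Ryk* (13.2 to 16.5 FPKM). Among R-spondin receptors and their ligases, *Lgr6* was between 5.43 and 15.9 FPKM and *Rnf43* between 2.83 and 7.16 FPKM. All 4 genes of this list above the filter, *Lgr4*, *Lgr6*, *Rnf43* and *Znrf3*, were lowest in replicate 3, as were 51.8% of all genes tested. Of 17 genes listed as extracellular antagonists, 5 reached the filter. The most abundant was *Dkkl1*, a Dickkopf-like gene, at 141 FPKM in replicate 3 and 8.73 to 16.0 FPKM elsewhere. Whether *Dkkl1* acts as a Wnt antagonist was not tested. *Sfrp2*, a secreted Wnt-binding protein gene, was at 12.0 FPKM in replicate 3 and 0.999 to 1.44 FPKM elsewhere. *Kremen1*, a Dickkopf receptor gene, was at 14.4 FPKM against 5.42 to 7.91 FPKM.

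Of 17 cytoplasmic genes 12 reached the filter, with these the most abundant. *Ctnnb1*, which encodes beta-catenin, lay between 108 and 163 FPKM, *Csnk1a1*, a kinase of the destruction complex, between 143 and 199 FPKM, and *Dvl1*, which relays the receptor signal, between 37.0 and 57.0 FPKM. Of the nuclear factors, *Tle3* (30.0 to 46.7 FPKM), *Tcf7l2* (13.3 to 27.1 FPKM) and *Tcf7l1* (6.33 to 24.7 FPKM) were the most abundant, and *Lef1* did not pass 0.0441 FPKM. Of 13 target genes 7 reached the filter, and 5 of these were lowest in replicate 3, as were 51.8% of all genes tested. Among these 5 are *Rnf43* and *Znrf3*, already counted with the R-spondin receptors and ligases. *Myc* (54.0 FPKM in replicate 3, 92.2 to 158 FPKM elsewhere) and *Ccnd1* (30.2 FPKM against 77.8 to 95.2 FPKM) were high and lowest in replicate 3, while *Cd44* was highest there (27.8 FPKM against 4.71 to 14.1 FPKM). All 3 are also regulated by other pathways. *Tnfrsf19*, from the same list, was at 0.0693 FPKM in replicate 3 and 2.33 to 5.37 FPKM elsewhere. Of the feedback targets in the same list, *Rnf43* and *Znrf3* are given above, *Tcf7* lay between 1.03 and 2.79 FPKM, and *Lgr5*, *Nkd1*, *Notum* and *Sp5* stayed below 0.3 FPKM in each library.

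Replicate 3 was the highest library for 4 of the 7 tested members and for 18.5% of all genes tested, and the lowest for 3 of the 7 and for 51.8% of all genes tested. The 4 high genes were *Wnt4*, *Wnt5a*, *Wnt7b* and *Lrp6*, and the 3 low genes were *Rspo1*, *Wnt5b* and *Lgr4*. Over the 54 pathway genes it was highest for 14 (25.9%) and lowest for 25 (46.3%). *Wnt5a* and *Fzd10* are among those counted as highest and were under 1 FPKM in every other library, so the filter fixed their place. Without replicate 3, 272 of all genes tested would have had a mean under 1 FPKM. The gap between replicate 3 and the mean of the other libraries exceeded the range of those libraries for 47.5% of all genes tested. The gaps of the tested members, in log2, were those of *Rspo1* (-3.86 against a range of 0.34), *Wnt7b* (2.87 against 0.64), *Wnt5a* (2.29 against 0.50), *Wnt4* (1.02 against 0.24), *Lgr4* (-1.89 against 1.22), *Lrp6* (0.42 against 0.37) and *Wnt5b* (-0.47 against 0.66), the gap of *Wnt5b* staying within the range. *Fzd10*, a receptor gene named here after its values were seen, was at 12.1 FPKM in replicate 3 and 0.110 to 0.586 FPKM elsewhere.

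**Figure D4:**
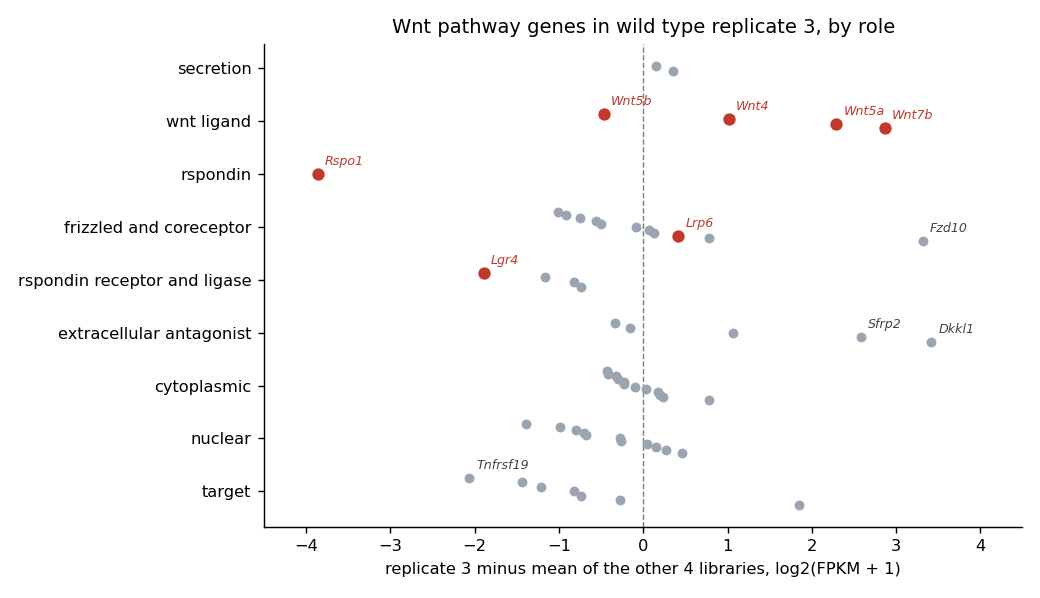
Difference in log2(FPKM + 1) between wild type replicate 3 and the mean of the other 4 libraries for pathway genes whose mean reached 1 FPKM, by role (red, the genes examined here, grey, other genes of the pathway, which can appear under 2 roles). *Rspo1* is farthest to the left at -3.86, and *Wnt7b* (2.87) and *Dkkl1* (3.42) are among the points farthest to the right.

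Marker genes of other kinds were also read. Replicate 3 was highest for 18.5% and lowest for 51.8% of all genes tested. Of 9 mature luminal (hormone-sensing) markers, 8 were highest there and the summed FPKM was 720 against 37.4 to 152 elsewhere. *Pgr*, the progesterone receptor gene, was at 27.1 FPKM against 0.111 to 0.714 FPKM, and *Tnfsf11*, which encodes the paracrine signal RANKL, at 7.22 FPKM against 1.39 to 6.71 FPKM. Of 6 milk genes 5 were lowest there, and the 6 summed to 26803 against 66569 to 88398 FPKM. The remaining milk gene, *Lalba*, was highest in replicate 3 (599 FPKM against 130 to 185 FPKM). All 8 proliferation genes were lowest in replicate 3 (59.5 against 128 to 209 FPKM). The 6 luminal progenitor markers were mixed, with 3 highest and 2 lowest in replicate 3.

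Basal markers summed to 13.3 FPKM in replicate 3 and 53.3 to 143 FPKM elsewhere. Of the 9, 4 were lowest in replicate 3, as were 51.8% of all genes tested. *Krt14* made up much of the sum, at 3.65 FPKM in replicate 3 and 27.7 to 104 FPKM elsewhere, with *Krt5* between 0.232 and 2.34 FPKM and *Trp63* no higher than 0.311 FPKM. Fibroblast markers summed to 110 FPKM in replicate 2, 87.8 FPKM in replicate 3 and 3.24 to 12.8 FPKM in the others. Of the 8 fibroblast markers, 3 were highest in replicate 3, such as *Dcn* (51.3 FPKM against 10.3 FPKM in replicate 2). The others were highest in replicate 2, such as *Col3a1* (36.9 FPKM against 9.19 FPKM in replicate 3). *Wnt5a* was at 0.444 FPKM in replicate 2 and 5.52 FPKM in replicate 3. Immune markers summed to 942, 254 and 473 FPKM in replicates 2, 3 and 5 and to 30.0 and 30.6 FPKM in replicates 1 and 4. *Cd74* alone was 465 FPKM in replicate 5, and the other 5 immune markers summed to 247 and 49.5 FPKM in replicates 2 and 3 and to 4.74 to 7.65 FPKM in replicates 1, 4 and 5. Endothelial markers summed to 6.59 and 7.50 FPKM in replicates 2 and 3 and to at most 0.700 FPKM elsewhere, and the 4 adipocyte markers to at most 0.0903 FPKM. The part of these cell types in the levels of the Wnt and R-spondin genes was not tested.

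By pattern over the 5 libraries, the genes most like *Rspo1* among 11480 others were *Nrep*, *Xist* and *Ankrd22*. Likeness was the root mean square difference between mean-centred log2(FPKM + 1) profiles, at 0.21, 0.27 and 0.29 for these genes, where the RMS of *Rspo1* around its own mean was 1.55. *Nrep* was at 2.53 FPKM in replicate 3 and 34.2 to 40.2 FPKM elsewhere. *Xist*, the RNA that coats the inactive X chromosome in female cells, was at 1.16 FPKM in replicate 3 and 44.7 to 48.9 FPKM elsewhere. The 4 Y-linked genes looked up (*Ddx3y*, *Eif2s3y*, *Kdm5d* and *Uty*) did not pass 0.0198 FPKM in any library, and the nuclear RNAs *Malat1* and *Neat1* were highest in replicate 3 (295 and 165 FPKM).

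The genes most like *Wnt4* were *Sema4a*, *Palld* and *BC023829*, at differences of 0.051, 0.052 and 0.055, where the RMS of *Wnt4* around its mean was 0.415. Of the 11480 genes compared, 271 lay within 0.2 of *Wnt4*, so many genes shared this pattern. For *Rspo1*, with its larger RMS of 1.55, 0 genes lay within 0.2. *Sema4a*, a semaphorin gene, was at 7.01 FPKM in replicate 3 and 2.85 to 3.15 FPKM elsewhere.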

How the data were processed

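The authors sorted luminal cells, made libraries with the NEBNext Ultra RNA kit, aligned the paired-end reads to mm10 with TopHat and deposited FPKM values from Cufflinks 2.2.1. The paper and the submitters' processing notes give different TopHat versions (TopHat2 2.0.13 in the notes, which also name Trimmomatic 0.35). More than 1 sequencing platform and read length were used, and which library had which, the annotation and the strand setting are not given in the sources used here. Of 24346 rows, 27 with a date in place of a gene name were left out. The deposited FPKM were put on the log2(FPKM + 1) scale, on which a change in a low gene appears too small. The labels were compared with limma 3.58.1 (eBayes with a trend, Benjamini-Hochberg) in R 4.3.3, on the 11481 genes whose mean reached 1 FPKM, and otherwise with exact permutation tests. The limma code was first run on simulated data with the same small SD in every gene and no library set apart. That check does not cover a library like replicate 3. Depth was estimated from 873 genes with 1 transcript over 3000 bases, with no counts recovered, and covers counting error only. Coordinates are those of GENCODE M21 on GRCm38 (mm10), and promoters those of RefSeq.

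The members and lists were chosen with earlier results of these data known. Genes named are the 10 members, *Brca1*, the 3 most abundant of each pathway list and those past a threshold, markers beside a result, and the 3 genes most like *Rspo1* and *Wnt4*. Others, such as *Fzd10*, *Wnt11* and the Y-linked genes, were named after their values were seen. Alternatives were other pseudocounts, filters, scalings, eBayes without a trend, array weights and each replicate left out. Permutation tests used scipy 1.17.1 under Python 3.11.15.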

Additional observations from a re-analysis of the deposited data

Results flagged for a closer look

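With the 5 libraries taken as 1 group, a library stood far from the rest when its gap to the nearest other value, divided by the whole range in log2(FPKM + 1), passed Dixon's 95% critical value of 0.71. This held for 5 of the 10 members. Replicate 3, labelled wild type, was the distant library for *Rspo1* (0.916), *Wnt4* (0.784), *Wnt5a* (0.804) and *Wnt7b* (0.796), lowest for *Rspo1* and highest for the others. Replicate 4, labelled *Brca1* knockout, was the distant and highest library for *Dkk1* (0.764), at a level of few estimated fragments. Chance gives about 1 in 20 groups, and the same held for 4 of the 7 members whose mean reached 1 FPKM and for 1491 of all 11481 such genes, *Wnt5a* having reached that mean only through replicate 3.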

How the results depend on the processing

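No paired analysis was possible because the labels share no replicate numbers between the groups. No member and no pathway gene that was tested passed the adjusted threshold in any of the 12 alternatives. *Lgr5*, *Axin2* and *Dkk1* were tested only without a filter and with a filter of 0.1 FPKM, and *Wnt5a* in 11 alternatives, since it fell under the filter without replicate 3. Levels had 8 alternatives. The count of all genes past the adjusted threshold in limma was 0, against 2 without a filter, 1 with array weights, and 0 to 14 with 1 replicate left out (2 without replicate 1, 14 without replicate 4, 4 without replicate 5). With array weights, which gave replicate 3 a weight of 0.148, the differences reversed for *Rspo1* (-0.031), *Wnt4* (0.11) and *Wnt5b* (-0.00098). With 1 replicate left out they ran from -0.17 to 1.83 for *Rspo1*, from -0.40 to 0.17 for *Wnt4* and from -0.21 to 0.46 for *Wnt5b*. The signs turned without replicate 3 for all 3 genes, for *Wnt5b* (-0.21) also without replicate 5, and, as differences in means with no test, for *Wnt5a* (0.15) and *Axin2* (-0.08) without replicate 3. Where knockout replicate 4 or 5 was left out, the lone knockout library was assumed to vary like the wild type. The median over the 10 members within a library, averaged over libraries, was 2.51 in log2(FPKM + 1) and 2.15 with a pseudocount of 0.1, which changes the scale itself. Otherwise the cause was not tested. Estimated fragments under 10 (lower estimate) occurred for *Dkk1*, *Lgr5*, *Wnt5a* and *Axin2* in at least 1 library each.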
